A study of Homo sapiens with 6 samples.

Results

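C/D box snoRNAs are small nucleolar RNAs that guide methyl groups onto other RNAs, and they are described here in mantle cell lymphoma cells carrying guide RNAs against the nuclear receptor gene NR4A1. Members are the rows of the expression table whose symbol is SNORD followed by a digit, without SNORD3A and SNORD118, and averaging 1 FPKM or more over the 6 libraries (FPKM is the number of fragments mapped to a gene, scaled for its length and for the library's mapped fragments). Of 256 rows with such a symbol, 152 were listed at 0 in all 6 libraries and the other 104 are the members, out of 11400 genes that met the same minimum. The threshold removed 0 rows that had a value anywhere, and SNORD11B, at a mean of 1.99 FPKM, was the member nearest to it.

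Jeko and Rec-1 are established human lines derived from mantle cell lymphoma, a cancer of B cells. All 6 libraries came from cells with Cas9 in a tet-on (doxycycline-inducible) vector and 48 h of doxycycline, the controls included. In each line, 1 library carried the empty vector (control) and 2 carried an NR4A1 single guide RNA, labelled sgRNA 1 and sgRNA 2. No control was replicated, each guide was sequenced once per line, and the labels name stable lines. The spread tested below is therefore that between the libraries of different guides. In the test of the sgRNA effect it also holds how far the difference from the control differs between the lines. Total RNA was extracted with a column kit and made into libraries with an Illumina TruSeq kit, per the labels' protocols.

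A C/D box snoRNA folds so that box C, near its 5′ end, and box D, near its 3′ end, come together and bind fibrillarin, NOP56, NOP58 and SNU13. The bases upstream of box D pair with a target RNA and place the 2′-O-methyl group, mostly on ribosomal RNA. Most vertebrate members have no promoter of their own. They lie in introns of host genes, often genes for ribosomal proteins or noncoding genes such as GAS5 and SNHG1, and are released when the host's introns are trimmed.

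The results below turn on 6 members above 130 nt and on a few short ones, and the sequences of 9 of these are shown 5′ to 3′ from GRCh37, at the positions of GENCODE release 44 mapped to that build. Capitals mark the first TGATGA (box C) within 30 bases of the 5′ end and the last CTGA (box D) within 30 bases of the 3′ end, on the transcribed strand. The first 5 are long members. SNORD15B, the other long member, lies in the same host gene as SNORD15A, RPS3.
SNORD15A: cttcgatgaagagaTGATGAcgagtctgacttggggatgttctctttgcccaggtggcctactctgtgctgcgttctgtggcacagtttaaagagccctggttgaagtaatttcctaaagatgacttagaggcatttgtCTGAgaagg
SNORD97: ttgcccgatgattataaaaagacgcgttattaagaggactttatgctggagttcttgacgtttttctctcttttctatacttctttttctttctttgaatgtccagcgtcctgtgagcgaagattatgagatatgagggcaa
SNORD10: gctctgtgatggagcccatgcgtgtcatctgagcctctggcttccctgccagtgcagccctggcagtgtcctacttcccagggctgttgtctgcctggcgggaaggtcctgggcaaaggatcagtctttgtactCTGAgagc
SNORD17: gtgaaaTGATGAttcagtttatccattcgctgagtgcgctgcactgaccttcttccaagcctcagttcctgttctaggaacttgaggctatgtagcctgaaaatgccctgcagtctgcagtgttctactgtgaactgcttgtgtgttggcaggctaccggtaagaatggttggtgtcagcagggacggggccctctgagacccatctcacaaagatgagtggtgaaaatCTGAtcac
SNORD94: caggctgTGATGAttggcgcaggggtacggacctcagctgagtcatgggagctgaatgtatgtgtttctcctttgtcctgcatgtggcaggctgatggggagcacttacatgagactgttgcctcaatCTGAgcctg
The next 4 are short members: 3 that were lower in the sgRNA libraries, and 1 copy of the SNORD116 cluster.
SNORD104: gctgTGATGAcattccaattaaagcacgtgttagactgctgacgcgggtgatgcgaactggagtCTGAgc
SNORD42B: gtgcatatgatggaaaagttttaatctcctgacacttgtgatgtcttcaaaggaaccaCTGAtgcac
SNORD100: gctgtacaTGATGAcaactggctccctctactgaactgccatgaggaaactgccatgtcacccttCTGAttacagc
SNORD116-24: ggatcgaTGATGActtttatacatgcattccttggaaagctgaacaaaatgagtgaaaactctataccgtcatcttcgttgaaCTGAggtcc

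SNORD15A lies at chr11:75111435-75111582 on the plus strand in RPS3. SNORD97 lies at chr11:10823014-10823155 on the minus strand in EIF4G2, SNORD10 at chr17:7480129-7480270 on the plus strand in EIF4A1, SNORD17 at chr20:17943353-17943589 on the minus strand in SNX5, and SNORD94 at chr2:86362993-86363129 on the plus strand in PTCD3. SNORD104 lies at chr17:62223443-62223512 in SNHG25, SNORD42B at chr17:27047568-27047634 in RPL23A, SNORD100 at chr6:133137941-133138016 in RPS12 and SNORD116-24 at chr15:25339184-25339275 in SNHG14, each on the plus strand. In all, 72 of the 104 members were placed at 1 GENCODE gene inside their host. All 72 lay on the host's strand, 60 of them in an intron of the host's canonical transcript and 12 inside the host gene but beyond that transcript's ends.

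The exact letters CTGA stood in the 3′ window of 95.8% of the 72 placed members and TGATGA in the 5′ window of 69.4%, and 68.1% had both. In windows of the same length just upstream of each member these shares were 6.94%, 4.17% and 0%. Among 69 placed H/ACA snoRNAs and Cajal body RNAs, the other class of guide RNA, they were 23.2%, 5.8% and 5.8%. The shares describe letters only, but they go with the members' name. SNORD97 shows neither motif in its windows, and SNORD10 and SNORD42B show no exact TGATGA.

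Between 15478 and 16150 genes had a value above 0 in a library, and FPKM summed to between 905778 and 1160107. NR4A1, the targeted gene, was at 5.99 FPKM in the Jeko control, 3.89 in Jeko sgRNA 1 and 4.44 in Jeko sgRNA 2, and at 11.6, 27.4 and 12.7 FPKM in the libraries labelled Rec-1 control, sgRNA 1 and sgRNA 2. Its mRNA was thus lower with both guides in Jeko and higher with both in Rec-1, and directions given for Rec-1 rest on the labels. The library labelled Rec-1 control goes against its label: CCND1 (cyclin D1) was at 495 FPKM there and at 442 to 815 in the Jeko libraries, but at 0.696 and 0.592 in the Rec-1 sgRNA libraries. Over the 11400 genes its Pearson correlation was 0.941 with the Jeko control and 0.757 and 0.762 with the Rec-1 sgRNA libraries. Markers were checked from lists: the B-cell gene CD79A was at 265 to 596 FPKM in every library, the monocyte genes CD14 and CSF1R were at most 0.0531 FPKM, and of the 3 T-cell genes CD3D was at 66.3 and 95.3 FPKM in the Rec-1 sgRNA libraries and at most 0.438 elsewhere, CD3E at 5.19 and 5.80 and at most 0.532 elsewhere, and CD2 at most 0.0291 everywhere. The part of these differences in the Rec-1 values below was not tested. In bulk RNA, a change in which cells are present and a change in RNA per cell cannot be told apart.

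The values of short snoRNAs moved in steps. Within a library, the FPKM of a member was a whole multiple of a unit that depends on its length, and that unit is taken here as 1 fragment. In the Jeko control 1 fragment was worth 446 FPKM for SNORD44 (61 nt), 88.8 FPKM for SNORD100 (76 nt), 29.0 FPKM for SNORD116-24 (94 nt) and 12.2 FPKM for SNORD89 (114 nt). It was 4.23 FPKM for SNORD10 (148 nt) and 0.780 FPKM for SNORD17 (237 nt). A value of 100 FPKM therefore rests on about 1 fragment at 76 nt, on several at 114 nt and on many for a long member. FPKM levels of members of different length are not comparable. Where members are ranked by mean FPKM or summed below, short members weigh more per fragment.

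**Figure D1:**
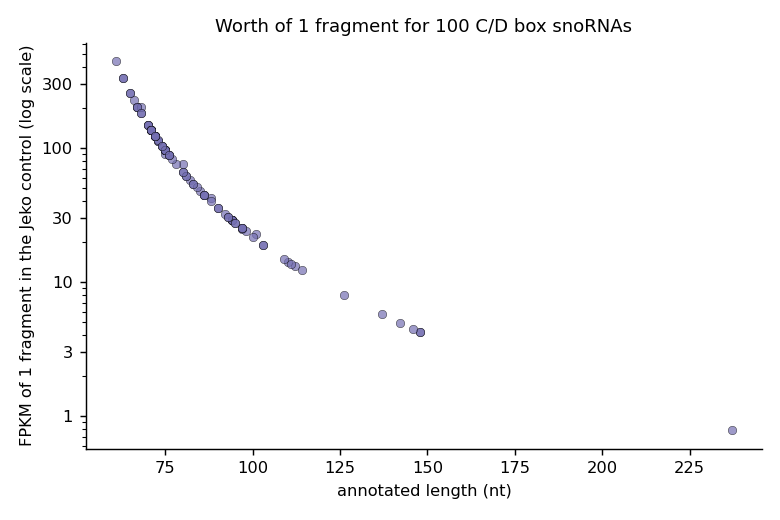
Worth of 1 fragment in the Jeko control (FPKM, log scale) against annotated length (nt) for 100 members, each point a member. The worth falls from 446 FPKM at 61 nt to 0.780 FPKM at 237 nt. Up to 120 nt each step was chosen within 15% of a smooth curve, so the smoothness there is partly by construction.

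Steps were found in 5 libraries, but not in Rec-1 sgRNA 1, for which the relative depth could not be recovered. Among 93 short members with a step, 196 of 465 values were listed at 0 and 269 were above 0. The step was fitted to each member's own values, so a member with 1 or 2 values is whole or nearly so by construction. In the 48 members with 3 or more values of up to 20 steps, 196 of 198 such values lay within 1% of a whole number. Of the 269, 101 (37.5%) were of 1 fragment and 174 (64.7%) of 1 to 3, while 25 were above 10. Most values above 0 of short members thus stood for 1 to 3 fragments, and a value of 0 and a value above 100 FPKM can be 1 fragment apart. Only 26 of the 104 members were above 0 in all 6 libraries, and 18 were above 0 in a single library.

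**Figure D2:**
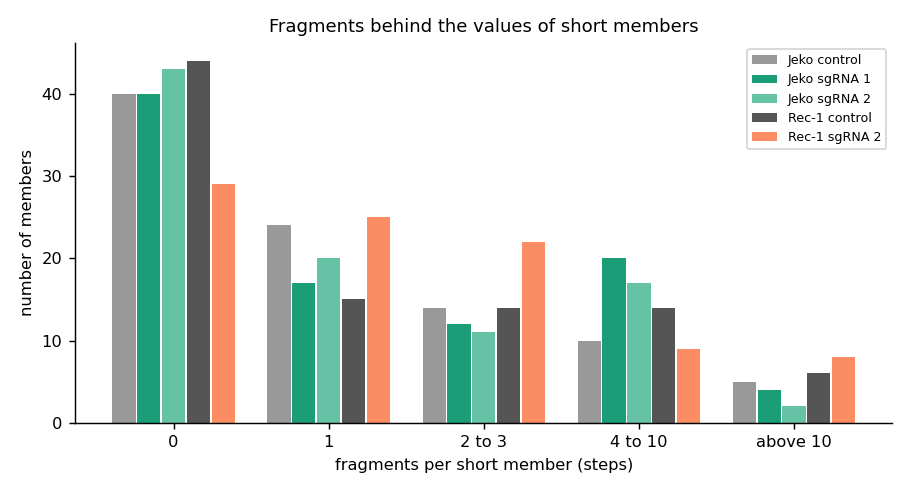
Number of the 93 short members (vertical axis) by the fragments behind their value (horizontal axis) in the 5 libraries with recovered steps. In each of the 5 libraries the bar at 0 is the tallest, from 29 members in Rec-1 sgRNA 2 to 44 in the library labelled Rec-1 control.

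Members together held 28539 FPKM in the Jeko control, 31691 in Jeko sgRNA 1, 20209 in Jeko sgRNA 2, 28543 in the library labelled Rec-1 control, 38634 in Rec-1 sgRNA 1 and 35848 in Rec-1 sgRNA 2. These are 1.78% (Jeko sgRNA 2) to 4.26% (Rec-1 sgRNA 1) of all FPKM. The summed FPKM of all members overlapped between the control and sgRNA libraries. The sum of the 6 long members did not: it stood at 41.6 FPKM in the Jeko control and 130 in the library labelled Rec-1 control, against 3864 and 1831 in Jeko sgRNA 1 and 2 and 6240 and 7587 in Rec-1 sgRNA 1 and 2. The other 98 members held 28497 and 28413 FPKM in the controls and 18379 to 32394 in the sgRNA libraries.

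Counted in fragments, the 6 long members held 18 in the Jeko control and 45 in the library labelled Rec-1 control. They held 782 in Jeko sgRNA 1, 512 in Jeko sgRNA 2 and 1254 in Rec-1 sgRNA 2. The 93 short members with steps held 285, 317, 255, 211 and 262 fragments in the same order of libraries. The long members' share of these fragments was 5.94% and 12.4% in the controls and 70.8% to 82.7% in the 3 sgRNA libraries with steps. SNORD22 (126 nt) is in neither group. The 6 contributed unevenly: of the 782 in Jeko sgRNA 1, SNORD15B held 357, SNORD97 286, SNORD94 10 and SNORD15A 3. The totals are at each library's own depth. Scaled to the depth of the Jeko control, the short members held 284.9, 288.1, 292.3, 191.2 and 381.3 in the order above. The long members then held 18, 40.9, 896.5, 464.3 and 1825.3.

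In the test of the sgRNA effect 4 of the 6 long members were called higher and 3 short members lower. In the limma fit of 4 sgRNA against 2 control libraries with the cell line as covariate, 28 of 11400 genes passed an adjusted p of 0.05, which is 0.246%, and 2410 (21.1%) had an unadjusted p under 0.05. Of the 104 members, 7 passed: 4 of the 6 long members were higher and 3 of the 98 others were lower. An unadjusted p under 0.05 was found at 26 members, 21 higher and 5 lower. Of the 98 others, 62 had a difference above 0, against 5748 of the 11400 genes. The median difference was 3.86 over the long members, 1.29 over the others and 0.0079 over all genes tested, on the log2(FPKM + 1) scale used for every difference here.

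SNORD15B, which guides methylation of large-subunit ribosomal RNA, was at 8.92 FPKM in the Jeko control, against 1824 and 999 in Jeko sgRNA 1 and 2. It was at 40.5 FPKM in the library labelled Rec-1 control and 3306 and 4114 in Rec-1 sgRNA 1 and 2. All 4 sgRNA libraries lay above both controls. The values stand for 2 and 10 fragments in the Jeko and Rec-1 controls and for 357, 247 and 634 in Jeko sgRNA 1, Jeko sgRNA 2 and Rec-1 sgRNA 2. The limma difference was 6.78 (SE 0.31, limma adjusted p = 0.00265), and the gene passed in each of the 6 refits that left out 1 library.

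SNORD15A, the other C/D snoRNA in RPS3 and a guide of the same family, was at 8.46, 14.5 and 11.5 FPKM in the Jeko control, sgRNA 1 and sgRNA 2. It was listed at 0 in the library labelled Rec-1 control and was at 15.8 and 24.6 FPKM in Rec-1 sgRNA 1 and 2. These are 2, 3 and 3 fragments in Jeko, 0 in the library labelled Rec-1 control and 4 in Rec-1 sgRNA 2. SNORD15A was thus of a like length and in the same host as SNORD15B but stayed within a few fragments in every library with steps. RPS3 itself, a protein of the small ribosomal subunit, was at 2588, 2563 and 2742 FPKM in the Jeko libraries and 2380, 2568 and 2423 in the libraries labelled Rec-1 control, sgRNA 1 and sgRNA 2 (difference 0.051, SE 0.13, limma adjusted p = 0.813).

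SNORD97, a guide for ribosomal RNA and a transfer RNA, was listed at 0 in the Jeko control and was at 1630 and 645 FPKM in Jeko sgRNA 1 and 2. It was at 13.6 FPKM in the library labelled Rec-1 control and 1818 and 2315 in Rec-1 sgRNA 1 and 2, with no overlap between groups. In fragments these were 0 and 3 in the controls against 286, 143 and 320 in Jeko sgRNA 1, Jeko sgRNA 2 and Rec-1 sgRNA 2. The difference was 8.57 (SE 0.72, limma adjusted p = 0.0255). Its host EIF4G2, a translation initiation factor gene, was at 134, 205 and 146 FPKM in Jeko and 121, 98.1 and 111 in Rec-1 in the same order (difference 0.078, SE 0.24, limma adjusted p = 0.855).

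SNORD10, a guide for U6 spliceosomal RNA, was at 4.23, 267 and 107 FPKM in the Jeko control, sgRNA 1 and sgRNA 2 and at 53.8, 807 and 837 FPKM in the libraries labelled Rec-1 control, sgRNA 1 and sgRNA 2. The controls stand for 1 and 14 fragments and the 3 sgRNA libraries with steps for 55, 28 and 136. The lowest sgRNA library, Jeko sgRNA 2, was above the higher control. The difference was 4.47 (SE 0.44, limma adjusted p = 0.0388), while its host EIF4A1, an RNA helicase of translation initiation, had −0.48 (SE 0.25, limma adjusted p = 0.286).

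SNORD17, the longest member and a guide for large-subunit ribosomal RNA, was at 8.58, 63.5 and 63.7 FPKM in Jeko and 11.3, 167 and 164 FPKM in Rec-1, in the same order. These are 11, 71 and 90 fragments in Jeko and 16 and 144 in the library labelled Rec-1 control and Rec-1 sgRNA 2. The guides lay close to each other within each line and the groups did not overlap. The difference was 3.25 (SE 0.27, limma adjusted p = 0.0249). Its host SNX5, a sorting nexin, had a difference of 0.0067 (SE 0.25, limma adjusted p = 0.988).

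SNORD94, another guide for U6, was at 11.5, 65.7 and 5.19 FPKM in Jeko and 10.4, 126 and 133 FPKM in Rec-1, in the same order. It stood for 2, 10 and 1 fragments in Jeko and 2 and 16 in the library labelled Rec-1 control and Rec-1 sgRNA 2. Jeko sgRNA 2 lay below both controls, and SNORD94 did not pass the test. Of the 4 long members that did, SNORD10, SNORD17 and SNORD97 each passed in 2 of the 6 refits without 1 library. SNORD17 and SNORD97 did not pass without any 1 of the sgRNA libraries (limma adjusted p from 0.113 to 0.204 and from 0.0564 to 0.204), and SNORD10 did not without Jeko sgRNA 2, Rec-1 sgRNA 1, Rec-1 sgRNA 2 or the library labelled Rec-1 control (0.135 to 0.279). The differences in these refits were 3.17 to 3.33 for SNORD17, 8.08 to 8.85 for SNORD97 and 4.54 to 5.03 for SNORD10, close to those of all 6 libraries. With no minimum on the mean, SNORD10, SNORD17 and SNORD97 did not pass (limma adjusted p = 0.128, 0.0745 and 0.0916), and SNORD97 did not with a pseudocount of 0.1 (0.0773).

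**Figure D3:**
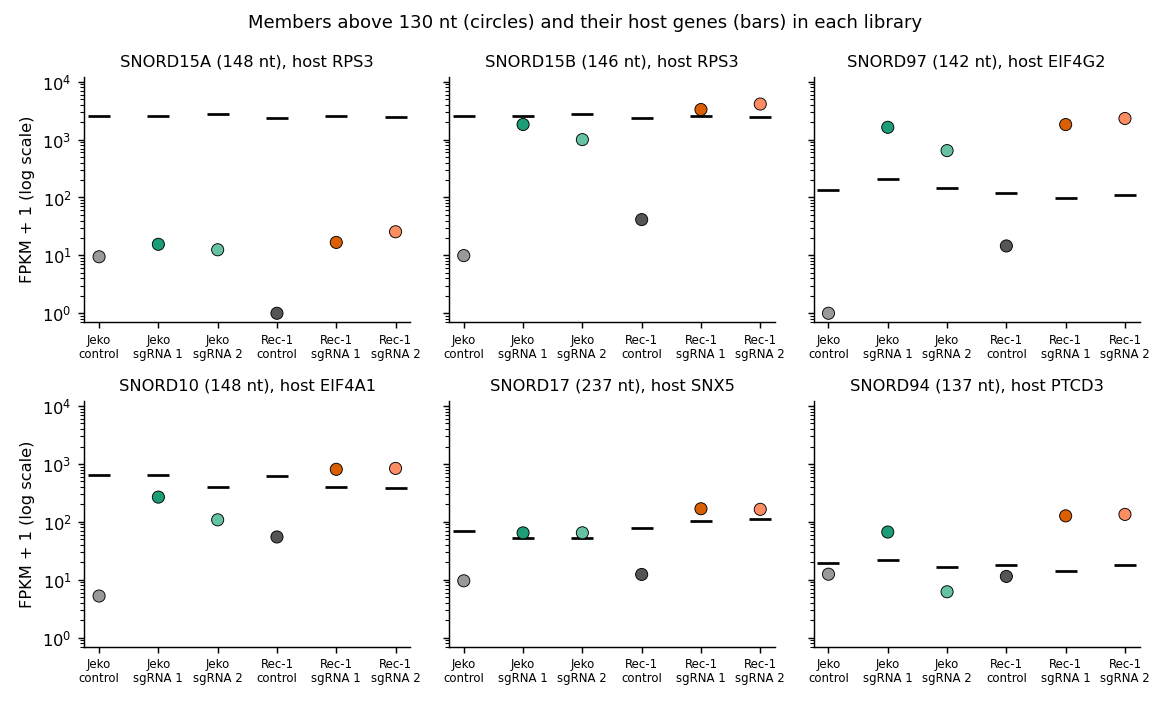
FPKM + 1 (log scale) of the 6 members above 130 nt (circles) and of their host genes (bars) in each of the 6 libraries. SNORD15B, SNORD97, SNORD10 and SNORD17 lie lower in both controls than in every sgRNA library, while SNORD15A stays between 0 and 24.6 FPKM and the RPS3 bars keep between 2380 and 2742 FPKM.

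The short members called lower rested on fewer fragments, apart from SNORD104. SNORD104, a guide for large-subunit ribosomal RNA in the noncoding gene SNHG25, was at 2513 FPKM in the Jeko control, against 682 and 600 in Jeko sgRNA 1 and 2. It was at 2224 FPKM in the library labelled Rec-1 control and 495 and 385 in Rec-1 sgRNA 1 and 2. The groups did not overlap, and the values stand for 38, 9 and 10 fragments in Jeko and 37 and 4 in the library labelled Rec-1 control and Rec-1 sgRNA 2. The difference was −2.16 (SE 0.19, limma adjusted p = 0.0259). It passed in 1 of the 6 refits without 1 library, the one without the Jeko control (0.0112), and had an adjusted p of 0.122 to 0.179 in the others, at differences from −2.23 to −1.97. With no minimum on the mean it did not pass either (limma adjusted p = 0.0964).

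SNORD42B, a guide for small-subunit ribosomal RNA in RPL23A, was at 204 FPKM in the Jeko control and 185 in the library labelled Rec-1 control, and was listed at 0 in all 4 sgRNA libraries. Each of those control values is 1 fragment. SNORD100, a guide for small-subunit ribosomal RNA in RPS12, was at 88.8 and 161 FPKM in the same 2 libraries, or 1 and 2 fragments, and was listed at 0 in the other 4. Their differences were −7.61 (SE 0.17, limma adjusted p = 0.000307) and −6.92 (SE 0.25, limma adjusted p = 0.000908). Both passed in each refit without 1 library, but their calls compare 2 and 3 fragments in all with 0.

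Leaving out a control moved the count of members called most. Without the Jeko control 31 members passed (24 higher, 7 lower) among 2180 of all genes, and without the library labelled Rec-1 control 12 passed (6 higher, 6 lower) among 51 of all genes. Without Rec-1 sgRNA 2, 4 members passed, 1 higher and 3 lower, among 12 of all genes. When 1 control was left out, the spread came from the guides alone. The fit without the library labelled Rec-1 control takes its difference from Jeko alone. In it SNORD15B (7.09, limma adjusted p = 0.0193) and SNORD17 (2.75, limma adjusted p = 0.0324) were higher, as was SNORD97 (limma adjusted p = 0.0193).

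The sign of the difference from the own-line control was the same in all 4 sgRNA libraries for 17 members that were higher and 12 that were lower, against 21% and 21.1% of all genes tested. The 17 include 5 of the 6 long members, and the 12 include 0 of them. By smallest difference, the 5 higher members were SNORD97, SNORD15B, SNORD10, SNORD8 and SNORD46, and the 5 lower ones SNORD42B, SNORD100, SNORD104, SNORD35B and SNORD87, of which SNORD35B and SNORD87 were listed at 0 in some sgRNA libraries.

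SNORD8, a guide for U6 at 109 nt, was listed at 0 in both controls. It was at 119 and 13.4 FPKM in Jeko sgRNA 1 and 2 (7 and 1 fragments) and at 302 and 280 in Rec-1 sgRNA 1 and 2 (13 fragments in the second). SNORD46, a guide for large-subunit ribosomal RNA at 98 nt, was listed at 0 in the Jeko control and had 3 and 5 fragments in Jeko sgRNA 1 and 2 (82.0 and 108 FPKM), and it had 2 in the library labelled Rec-1 control and 14 in Rec-1 sgRNA 2 (43.3 and 486 FPKM). Neither passed the sgRNA test. SNORD35B (88 nt) had 6, 1 and 2 fragments in the Jeko libraries and 9 and 0 in the library labelled Rec-1 control and Rec-1 sgRNA 2, and SNORD87 (76 nt, in SNHG6) had 3, 1, 0, 2 and 0 in that order. Neither of these passed either.

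Within Jeko, 18 members were at least 2-fold higher than the control with both guides (background over all genes 1.89%) and 19 were at least 2-fold lower (1.15%). Within Rec-1, 32 were higher (11.9%) and 13 lower (11.4%) than the library labelled control. The counts have no replicate of the control, and for Rec-1 they include all that sets that library apart. The long members gave 4 and 6 of the higher ones in Jeko and Rec-1 and 0 of the lower ones. For the other 98 the median difference was 0 for both guides in Jeko, and 0.30 and 0 for sgRNA 1 and 2 in Rec-1.

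Length here is that of RefSeq. For SNORD91B it is 86 nt, where GENCODE gives 222 nt, which would make it a long member. SNORD91B had 2 fragments in each of Jeko sgRNA 1 and Rec-1 sgRNA 2 and was listed at 0 in both controls (difference 4.95, SE 1.90, limma adjusted p = 0.229).

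By length, the medians were highest in the group above 130 nt, with each guide in each line. Over the 13 members up to 69 nt the median differences were −0.39 and 0 for Jeko sgRNA 1 and 2 and 0 and −0.32 for Rec-1 sgRNA 1 and 2. For the 40 members of 70 to 79 nt they were 0.098, −0.07, 0 and 0, in the same order. For the 34 members of 80 to 99 nt they were 0, 0, 1.90 and 3.06, and for the 10 of 100 to 130 nt 0, 2.97, 0.88 and 0.68. The 6 long members had medians of 4.21, 3.56, 3.97 and 4.31. The share of values listed at 0 was 37.3% to 48.3% in the 4 shorter groups and 5.56% in the long one, so members differ by group both in length and in how often a value exists.

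SNORD22, at 126 nt the longest member under the length threshold and well covered, did not follow the long ones. It was at 377, 184 and 146 FPKM in Jeko and 358, 355 and 386 in Rec-1, in the order control, sgRNA 1, sgRNA 2. These are 47, 20 and 20 fragments in Jeko and 49 and 33 in the library labelled Rec-1 control and Rec-1 sgRNA 2. It was lower than the control with both guides in Jeko and close to it in Rec-1, and it did not pass the sgRNA test.

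**Figure D4:**
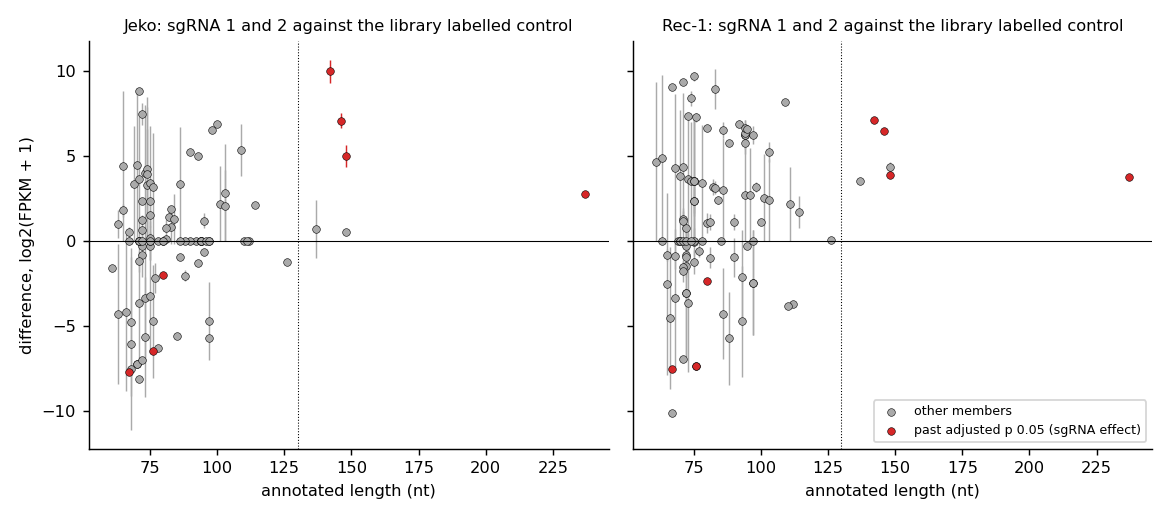
Difference from the own-line control on the log2(FPKM + 1) scale against annotated length for the 103 members with a length, in Jeko (left) and Rec-1 (right). Points are the mean of both guides, lines join the guides, red marks the 7 members past a limma adjusted p of 0.05 and the dotted line is 130 nt: red points above it are all higher and those below it all lower.

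H/ACA snoRNAs and Cajal body RNAs, the most similar class, guide pseudouridine and are mostly longer, with a median annotated length of 135 nt against 78 nt for the members. With the same filter, 14 of 108 passed the sgRNA test, all of them higher, against 0.246% of all genes tested. Of the 101 with a length, 83 are above 130 nt. At least 2-fold higher with both guides were 48 of the 108 in Jeko (1.89% of all genes) and 62 in Rec-1 (11.9% of all genes). Their median difference, taken over the mean of both guides, was 1.30 in Jeko and 2.06 in Rec-1, between that of the long C/D members (3.89 and 4.14) and that of the short ones (0 and 1.10). The difference between the classes was not tested.

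Hosts were assigned from RefSeq to 103 of the 104 members, all but SNORD85. The 52 hosts are 39 protein-coding genes with 64 members, 12 noncoding genes with 36 and 1 pseudogene with 3. Of 48 hosts that could be tested, 0 passed the sgRNA effect (lowest limma adjusted p = 0.169), and 11 had an unadjusted p under 0.05. Over all genes tested these shares were 0.246% and 21.1%. The interaction described below, in which the difference from the control is compared between the lines, called 1 of the 48 hosts. This was SNHG5 (limma adjusted p = 0.0207), where the share called over all genes tested was 6.94%. SNHG5, a noncoding gene that holds SNORD50A and SNORD50B, was at 1672, 1016 and 1087 FPKM in Jeko and 2103, 217 and 235 in Rec-1, in the order control, sgRNA 1, sgRNA 2. It was lower with both guides in both lines, and SNORD50A was higher in all 4 sgRNA libraries, at 96.1, 441 and 174 FPKM in Jeko and 87.3, 250 and 839 in Rec-1 (1, 4 and 2 fragments in Jeko and 1 and 6 in the library labelled Rec-1 control and Rec-1 sgRNA 2), without passing the sgRNA test. In several hosts members differed from the control in both directions. The 10 hosts with 3 or more members hold 46 of them.

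SNHG1, a noncoding gene with 8 members, was at 473 FPKM in the Jeko control, 73.9 in Jeko sgRNA 1 and 442 in Jeko sgRNA 2, and at 750, 275 and 585 in the libraries labelled Rec-1 control, sgRNA 1 and sgRNA 2. Its members summed to 2255, 4179 and 2386 FPKM in Jeko and 4354, 4897 and 4063 in Rec-1 in that order. The host was lowest in the Jeko library where the FPKM of its snoRNAs summed highest. That sum weighs short members more per fragment, and the order need not hold in fragments. SNORD22 (126 nt), the longest of the 8, had 47 fragments in the Jeko control and 20 in each Jeko sgRNA library. SNORD29 (65 nt), its member with the highest mean FPKM, had 1, 4 and 3 fragments in Jeko and 11 and 3 in the library labelled Rec-1 control and Rec-1 sgRNA 2. SNORD28 (75 nt) had 8, 13 and 6 fragments in Jeko and 7 and 3 in those libraries. In the same libraries SNORD25 had 1, 1, 2, 0 and 2 fragments and SNORD27 1, 5, 5, 5 and 7, and both were higher than the control in all 4 sgRNA libraries.

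GAS5, a noncoding gene of the same kind, holds 6 members that summed to 6568, 4015 and 2341 FPKM in Jeko and 5705, 5725 and 4218 in Rec-1. The host was at 1297, 933 and 1938 FPKM in Jeko and 1363, 809 and 1206 in Rec-1. SNORD47, its member with the highest mean and a guide for large-subunit ribosomal RNA, had 45, 16 and 6 fragments in Jeko and 40 and 13 in the library labelled Rec-1 control and Rec-1 sgRNA 2. It was lower in all 4 sgRNA libraries, with FPKM of 3699, 1508 and 447 in Jeko (control, sgRNA 1, sgRNA 2) and 2988, 2684 and 1555 in Rec-1, but did not pass the test. SNORD76 in the same gene was higher in all 4, at 556, 1345 and 672 FPKM in Jeko and 674, 2053 and 1079 in Rec-1, and did not pass either.

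RPL7A, a large-subunit ribosomal protein gene, holds SNORD36A, the member with the highest mean FPKM of all. SNORD36A was at 7562, 7532 and 5247 FPKM in Jeko and 6422, 4593 and 6135 in Rec-1. It was lower in all 4 sgRNA libraries, by as little as 0.0057 in Jeko sgRNA 1, and did not pass. SNORD36C had 11, 5 and 0 fragments in Jeko and 5 and 1 in the library labelled Rec-1 control and Rec-1 sgRNA 2, and SNORD36B had 0 in the Jeko control against 6 in the library labelled Rec-1 control. SNORD36A, SNORD36B and SNORD36C are similar copies, and reads could be split between them in counting, so each value is uncertain.

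RPL13A holds 4 members, of which SNORD33 has the highest mean. SNORD33, a guide for small-subunit ribosomal RNA, was at 108, 435 and 393 FPKM in Jeko and 148, 1012 and 1734 in Rec-1, or 2, 7 and 8 fragments in Jeko and 3 and 22 in the library labelled Rec-1 control and Rec-1 sgRNA 2. SNORD32A beside it had 2, 4 and 7 fragments in Jeko and 1 and 8 in Rec-1. Both were higher in all 4 sgRNA libraries, and SNORD35A of the same gene was lower in all 4, with 2, 1, 1, 3 and 0 fragments. RPL13A was at 853, 767 and 838 FPKM in Jeko and 870, 1766 and 1281 in Rec-1.

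The other host groups were thinner. In RABGGTB, SNORD45A had 1, 6 and 1 fragments in Jeko and 2 and 8 in the library labelled Rec-1 control and Rec-1 sgRNA 2. In RPL4, SNORD18C had 6 fragments in the library labelled Rec-1 control (1110 FPKM) and was listed at 0 in the other 5 libraries. In C19orf48P, SNORD88B had 5, 0, 1, 2 and 2 fragments in the same 5 libraries. In NOP56, SNORD110 had 4, 5, 2, 0 and 5, and SNORD56 was listed at 0 in all Jeko libraries and in the library labelled Rec-1 control and at 743 and 593 FPKM in Rec-1 sgRNA 1 and 2.

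**Figure D5:**
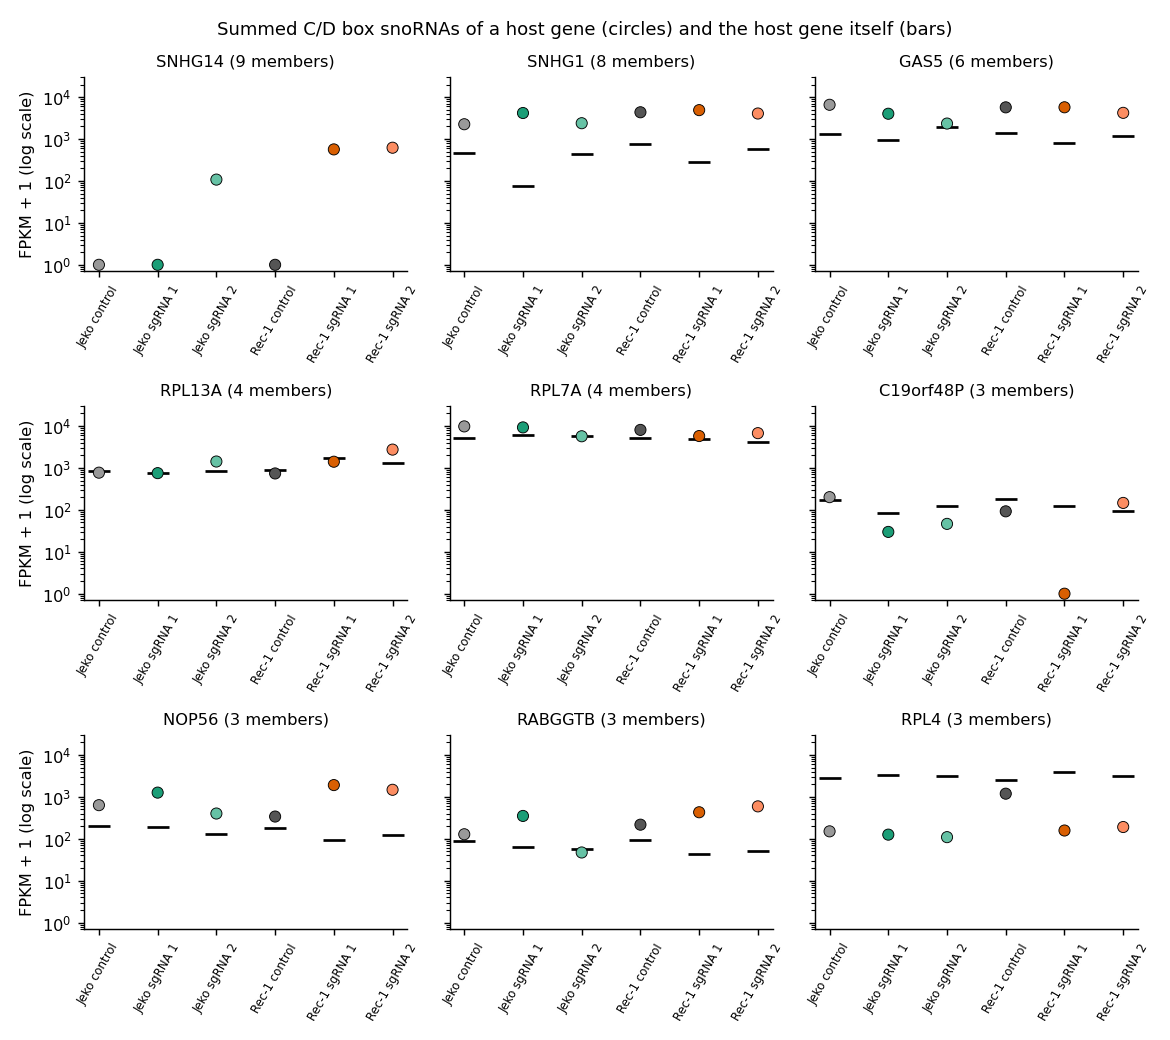
Summed FPKM + 1 (log scale) of the members of a host gene (circles) and of the host itself (bars) in each library, for 9 of the 10 hosts with 3 or more members. SNHG14 has no bar because the table has no row of that name, and its circles are highest in Rec-1 sgRNA 1 and 2, at 565 and 620 FPKM, with a lower value in Jeko sgRNA 2 and 0 in the other 3 libraries.

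SNHG14, the imprinted noncoding gene of the Prader-Willi region, holds 9 members: SNORD107, SNORD108 and 7 SNORD116 copies, which have no known ribosomal target. The 7 SNORD116 copies were listed at 0 in all 3 Jeko libraries and in the library labelled Rec-1 control. In Rec-1 sgRNA 1 and 2, SNORD116-24 was at 123 and 84.4 FPKM, SNORD116-23 at 80.2 and 84.4, and SNORD116-1 at 52.3 and 109. SNORD116-14 and SNORD116-15 had the same values as each other, 138 and 42.2 FPKM, and the copies are near-identical, so their reads cannot be assigned to a copy with certainty. In Rec-1 sgRNA 2 each copy stood for 1 to 3 fragments.

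Rec-1 and Jeko were compared among the sgRNA libraries alone, since the library labelled Rec-1 control lies close to the Jeko control. The limma contrast called 2947 of all genes, or 25.9% (42.3% at an unadjusted p under 0.05), and 21 of the 104 members. The members' share is near that of all genes. Of the 21, 17 were higher in Rec-1 and 4 (SNORD50B, SNORD83A, SNORD88A and SNORD95) were higher in Jeko.

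SNORD116-1, SNORD116-14, SNORD116-15, SNORD116-20, SNORD116-23 and SNORD116-24 are 6 of the 17, with differences from 5.78 (SNORD116-20) to 6.68 (SNORD116-24, SE 0.23, limma adjusted p = 0.00139). SNORD56 had the largest, 9.38 (SE 0.19, limma adjusted p = 0.00139), followed by SNORD49A in SNHG29 at 8.19. SNORD49A had 2 fragments in the Jeko control and 1 in the library labelled Rec-1 control, and it was listed at 0 in both Jeko sgRNA libraries and at 425 and 199 FPKM in Rec-1 sgRNA 1 and 2. SNORD105B, SNORD1C and SNORD70 were likewise listed at 0 in both Jeko sgRNA libraries, with differences of 6.93, 7.22 and 5.81. The rest were above 0 in all 4 libraries: SNORD10 (2.27), SNORD12 (2.52), SNORD17 (1.37), SNORD22 (1.17), SNORD33 (1.68) and SNORD46 (2.08).

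SNORD95, a guide for large-subunit ribosomal RNA in RACK1, was at 333, 381 and 1207 FPKM in the Jeko control, sgRNA 1 and sgRNA 2, which are 1, 1 and 4 fragments, and was listed at 0 in all 3 libraries labelled Rec-1. SNORD50B, in SNHG5, had 1 fragment in each Jeko library (136, 156 and 123 FPKM) and SNORD88A likewise (25.0, 28.8 and 22.7 FPKM), and both were listed at 0 in all 3 libraries labelled Rec-1. SNORD83A in RPL3 was at 158 and 200 FPKM in Jeko sgRNA 1 and 2 and 85.4 and 80.2 in Rec-1 sgRNA 1 and 2, a difference of −1.09 (SE 0.20, limma adjusted p = 0.031).

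The interaction asks whether the difference from the own-line control differs between Rec-1 and Jeko. The limma contrast called 791 of all genes, or 6.94% (21.9% at an unadjusted p under 0.05), and 25 members, the difference being higher in Rec-1 at 16 and lower at 9. The spread comes from the guides, since each control is 1 library. At 17 of the 25 exactly 1 of the controls was listed at 0, at 7 both were, and at 1, SNORD49A, neither was. Of the 17, 16 are short members, and in 10 of these the other control held 1 or 2 fragments. Over all 104 members, 15 were listed at 0 in the Jeko control and above 0 in the library labelled Rec-1 control, with the reverse at 19. Without Jeko sgRNA 2 the contrast called 9 members.

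SNORD15A was the 1 long member with a called interaction, 3.81 (SE 0.49, limma adjusted p = 0.0285), and its controls held 2 and 0 fragments. SNORD105, SNORD18A and SNORD45C were above 0 in the Jeko control alone, at 1 fragment each, and SNORD11B, SNORD23 and SNORD45B in the library labelled Rec-1 control alone, also at 1 fragment each. For these 6 members the interaction is the difference between a single fragment and a value of 0. SNORD102, SNORD18C and SNORD36B rested on more, with 7, 6 and 6 fragments in the library labelled Rec-1 control and a value of 0 in the Jeko control.

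The guides gave no called difference. Across the 4 sgRNA libraries limma called 0 of 11400 genes (0%) for guide 2 against guide 1, with 656 (5.75%) and 13 members at an unadjusted p under 0.05. This fit has 1 residual degree of freedom before moderation, so the lack of calls does not show that the guides agree. SNORD63 (−8.69, limma adjusted p = 0.0559) and SNORD34 (8.83, limma adjusted p = 0.0614) lay just over the threshold. Within Jeko, 14 members were at least 2-fold higher and 27 at least 2-fold lower in sgRNA 2 than in sgRNA 1, where 4.68% of all genes differed by that much in either direction. Within Rec-1 there were 23 and 26 such members, against 3.88% of all genes. Of the 104, 12 were above 0 with guide 2 alone and 13 with guide 1 alone in Jeko, and 14 and 15 in Rec-1.

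Among the long members in Jeko, 3 of the 6 were at least 2-fold lower in sgRNA 2 than in sgRNA 1 (median difference −1.09), and in Rec-1 0 of the 6 were at least 2-fold apart (median 0.20). Whether the lines differ in this was not tested. The guide RNA numbers are shared by the lines, but the labels do not say whether the sequences are.

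Proteins that bind or assemble C/D box snoRNAs were taken from a list of 15 names, of which 13 were in the table and tested. Of these 0 passed the sgRNA effect (limma, lowest adjusted p = 0.175, for PIH1D1) and 0 the interaction, with 2 and 0 at an unadjusted p under 0.05, and the median difference was −0.35. Of all genes tested, 0.246% passed the sgRNA effect and 6.94% the interaction, with 21.1% and 21.9% at an unadjusted p under 0.05. FBL (fibrillarin, the methyltransferase) was at 462, 423 and 345 FPKM in Jeko and 435, 347 and 313 in Rec-1, in the order control, sgRNA 1, sgRNA 2. NOP58, a core protein, was at 102, 97.4 and 94.1 FPKM in Jeko and 119, 65.3 and 88.7 in Rec-1. Both were lower than the own-line control in all 4 sgRNA libraries, as was the core protein gene NOP56. The remaining core protein, SNU13 (row NHP2L1), was not: it was at 147, 144 and 149 FPKM in Jeko and 153, 176 and 164 in Rec-1 (difference 0.073, SE 0.17). PIH1D1, an assembly factor, was at 71.5, 40.4 and 42.7 FPKM in Jeko and 71.2, 43.4 and 46.9 in Rec-1 (difference −0.71, SE 0.17).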

How the data were processed

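RNA-seq of 6 libraries was analysed from 1 table of FPKM values that the authors deposited, per the file headers, with 25277 gene rows. The submitters' processing notes name TopHat and hg19, and other steps are not given in the sources used here. FPKM are not counts, so no count model was used. Values were analysed as log2(FPKM + 1) for the 11400 genes averaging 1 FPKM or more. Linear models used limma 3.58.1 (R 4.3.3), with eBayes and a mean-variance trend, and Benjamini-Hochberg adjustment over all genes tested at a threshold of 0.05. The code was tested on simulated data. A difference on this scale understates the change of a gene near or under 1 FPKM. For a short member, 1 fragment against a value of 0 gives a large difference, whose size depends on the pseudocount. For SNORD42B, with 1 fragment in each control, it was −7.61, and −10.92 and −5.32 with pseudocounts of 0.1 and 5.

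Relative depth was read from genes under 0.05 FPKM as the commonest ratio to the Jeko control. The Jeko sgRNA libraries had 0.872 (sgRNA 1) and 1.10 (sgRNA 2), the library labelled Rec-1 control 1.10 and Rec-1 sgRNA 2 0.687. In Rec-1 sgRNA 1 only 5 of 562 such genes (0.890%) shared a ratio. Fragments are values divided by the step of each member. For members up to 120 nt a smooth curve of step against length was fitted, and each took the step within 15% of the curve that left most of its values whole. For members above 120 nt the step is the largest of which all values were whole within 0.15, a rule chosen after the values were seen. Absolute depth is unknown, and no counting interval was computed.

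Lengths and hosts are from RefSeq (GRCh38.p14, names and lengths only), positions and sequences from GENCODE on GRCh37. GENCODE and RefSeq lengths differ for some members, SNORD10 (142 and 148 nt), SNORD104 (70 and 80 nt) and, by the most, SNORD91B (222 and 86 nt) among them. The members, gene lists and rules were chosen with earlier results of these data known. Named members are those above 130 nt, those called in any fit, the 5 higher and 5 lower with the largest smallest difference among those of equal sign in all 4 comparisons, the 5 with the highest mean, and the highest of each host with 3 or more members, except that 1 host group and 1 sequence are not reported here. Nothing states that the libraries came from separate cultures, so p-values measure the spread between these libraries, which may be technical. Alternatives tried were pseudocounts, filters, rescaling, a replicate block, length thresholds and leaving out each library. Python 3.11.15 with pandas 2.3.3 and matplotlib 3.10.9 did the rest.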

Additional observations from a re-analysis of the deposited data

Results flagged for a closer look

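The difference from the own-line control differed between Rec-1 and Jeko at 25 members by the limma interaction, and each is given here as Rec-1 minus Jeko on the log2(FPKM + 1) scale. It was higher in Rec-1 at SNORD105 (5.61), SNORD105B (6.93), SNORD110 (10.01), SNORD116-1 (6.26), SNORD116-20 (5.78), SNORD116-23 (6.38), SNORD116-24 (6.68), SNORD15A (3.81), SNORD18A (7.23), SNORD21 (5.39), SNORD25 (8.56), SNORD45C (6.27), SNORD49A (9.31), SNORD56 (9.38), SNORD70 (5.81) and SNORD99 (6.66). It was lower in Rec-1 at SNORD102 (−8.98), SNORD11B (−3.70), SNORD12 (−4.10), SNORD16 (−5.76), SNORD18C (−10.12), SNORD23 (−3.80), SNORD36B (−10.39), SNORD45B (−6.96) and SNORD46 (−3.39). All 25 rest on 1 control library per line, and at 24 of them at least 1 control was listed at 0. The library labelled Rec-1 control lies close to the Jeko control, and its part in these values was not tested.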

How the results depend on the processing

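The count of 7 members called for the sgRNA effect was 3 with no minimum on the mean and 7 or 8 under 6 other settings of pseudocount, minimum, rescaling and trend. With no minimum the calls lost were SNORD10, SNORD17, SNORD97 and SNORD104, and SNORD97 was also lost with a pseudocount of 0.1. Without 1 library it lay between 4 and 31. The cause was not tested. When the guide number entered as a replicate block, 3 members were called (SNORD15B, SNORD42B and SNORD100) among 9 of all genes. SNORD10, SNORD17, SNORD97 and SNORD104 had limma adjusted p of 0.114, 0.109, 0.109 and 0.0984 with the block, where their alternatives ranged from 0.0201 to 0.279, 0.00279 to 0.204, 0.00685 to 0.204 and 0.0112 to 0.179. The number is all that same-numbered libraries are known to share: their deviations correlated between the lines at 0.0998 over all genes and −0.136 over the members. The block changed 0 of the 21 calls between the lines, whose count was 17 to 22 without 1 library. The 25 interaction calls became 9 to 30 without 1 library, and the 791 over all genes 524 with a pseudocount of 5 and 318 with a minimum mean of 5 FPKM. The guide difference called 2 members with that minimum, 1 with quantile normalization and 1 in the fit of all 6 libraries with the replicate block. It was not run without an sgRNA library, which leaves no residual degrees of freedom. The counts at least 2-fold from the control became 28 to 32 with a single guide for the higher members in Jeko (18 with both), 12 at 4-fold for the lower ones in Jeko (19 at 2-fold), and 13 became 23 with Rec-1 sgRNA 2 alone for the lower ones in Rec-1. The long members' median difference, 3.89 in Jeko and 4.14 in Rec-1, was 1.74 and 3.81 with the length threshold at 100 nt, 2.75 and 3.75 at 150 nt, and 5.22 in Rec-1 with a pseudocount of 0.1. No sign turned in the settings run. Of the short members' values above 0, 64.7% are of 1 to 3 fragments.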
